A study of Homo sapiens with 6 samples.

Results

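Granins and secreted neuropeptides were followed across total RNA sequencing libraries of a human neuroblastoma cell line, 3 labelled EtOH (ethanol) and 3 labelled Tet (tetracycline). The group held 10 of the 60651 genes in the tables, chosen by symbol, namely the granin genes *CHGA*, *CHGB*, *SCG2*, *SCG3*, *SCG5* and *VGF* and the peptide precursor genes *NPY*, *VIP*, *GAL* and *SST*. Each symbol matched 1 gene identifier. Per the labels, a tetracycline repressor system controlled *MYCN*, single clones were kept under G418 and blasticidin, and tetracycline was given for 5 days. The cell model was labelled in conflicting ways, since the titles name IMR-5/75, a line with *MYCN* amplification, while the protocol names SK-N-SH cells with inducible *MYCN* and one tag speaks of a knockdown. The methods of the study place inducible *MYCN* in SK-N-AS cells and an inducible *MYCN* shRNA in IMR-5/75 cells. Groups were therefore read from the titles alone, and no statement is made on which construct the cells carried. The labels do not say whether replicates were separate cultures, and the methods of the study describe cell culture experiments in general as biologically independent replicates without naming these libraries. The p-values cover the spread between these libraries.

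Granins are acidic secretory proteins that are packed into dense-core vesicles, the organelles that store hormones, catecholamines and neuropeptides until a rise in calcium releases them. Neuropeptides enter the same vesicles as precursors, which prohormone convertases cut at pairs of basic residues and further enzymes trim and amidate. Chromogranin A, encoded by *CHGA*, is a general marker of neuroendocrine tumours, and neuropeptide Y, VIP, galanin and somatostatin are products of sympathetic neurons and of tumours derived from them, neuroblastoma among them.

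The libraries held between 27933378 and 40498065 counts, so that 3 counts correspond to between 0.0741 and 0.107 CPM before TMM scaling. CPM values are counts scaled to the same library total, and those given for genes also carry TMM factors that even out differences in library composition. EtOH replicate 2 lay apart from the other libraries on the first principal component over all genes tested (score 84.2, against -55.0 and -37.0 in the other EtOH libraries), and Tet replicate 2 lay on the same side (47.3). The second component, with 25.7% of the variance, separated the labels. Its scores were -34.7, -39.1 and -38.9 in EtOH replicates 1 to 3 and 26.4, 38.1 and 48.1 in Tet replicates 1 to 3. *MYCN*, the gene under the inducible system (3.75% of its exon bases lie in the antisense gene *MYCNOS*), was at 158, 256 and 156 CPM in EtOH replicates 1 to 3 and at 196.6, 200.1 and 145.4 CPM in Tet replicates 1 to 3. The groups overlapped, and no change of *MYCN* RNA was detected (log2 fold change -0.07, 95% interval -0.60 to 0.46, edgeR adjusted p = 0.956). The study reports western blots of MYCN protein for its inducible models, and these libraries hold no protein values. Directions given here therefore compare the labels only.

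Markers of the sympathoadrenal lineage were in part present. *TH*, which encodes the rate-limiting enzyme of catecholamine synthesis, had 1 count in the 6 libraries together, and *DBH*, the enzyme that makes noradrenaline, had 0 to 18 counts per library. Of 9 sympathoadrenal markers, 7 were tested and 1, *DDC*, passed the threshold (0.236% of all genes tested did, in either direction). This gene for aromatic amino acid decarboxylase was higher in Tet, at 0.242 ± 0.104 and 2.84 ± 0.437 CPM (SD, n = 3 each; edgeR log2 fold change 3.55 with SE 0.41, adjusted p = 0.028). Its edgeR adjusted p was above 0.05 without any 1 library except EtOH replicate 2 (0.105 to 0.208, and 0.00518 without EtOH replicate 2). Over all genes, the former fits called at most 1 gene higher and 1 lower, and the latter called 361 higher and 331 lower of 23935. At an unadjusted p under 0.05, 5 of the 7 were higher in Tet (5.83% of all genes tested), with all 3 Tet libraries above all 3 EtOH libraries in each (9.21% of all genes tested), and 0 were lower. Their median log2 fold change was 1.18, and the 4 beside *DDC* were the transcription factor genes *GATA2* (1.75), *PHOX2A* (1.40), *ISL1* (1.18) and *GATA3* (0.36), with edgeR adjusted p between 0.142 and 0.401. The summed level of the sympathoadrenal markers was 378 to 403 TPM in EtOH libraries and 441 to 562 TPM in Tet libraries, where TPM is the level per gene length, scaled to the same total in every library. Mesenchymal or fibroblast markers summed to 31.6 to 67.2 and 25.1 to 45.2 TPM, with *COL1A2* at 0 counts in all libraries. Schwann cell markers summed to 2.13 to 2.79 and 1.16 to 3.72 TPM (*S100B* at 0), immune markers to 0.421 to 0.795 and 0.806 to 1.79 TPM (*CD3E* at 0), and endothelial markers to at most 0.0493 TPM (*VWF* at 0). Of these other markers, 4 of 6 Schwann cell, 6 of 8 mesenchymal, 1 of 4 immune and 0 of 3 endothelial genes were tested, and 0 passed the threshold. The mesenchymal genes had a median log2 fold change of -0.47, with *SNAI2* higher (1.84) and *PRRX1* lower (-1.02) in Tet at an unadjusted p under 0.05. The part of these markers in the granin values was not tested.

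Per gene length, 3 granins carried nearly all of the group's transcripts. *SCG3* was the highest with a mean of 175 TPM over the 6 libraries, above 98.7% of protein-coding genes, followed by *SCG2* with 82.5 TPM (above 95.3%) and *CHGB* with 26.0 TPM (above 82.9%). *CHGA* (2.04 TPM) and *GAL* (1.98 TPM) lay near the middle of all protein-coding genes, and *VGF* (0.370 TPM), *VIP* (0.178 TPM), *NPY* (0.0904 TPM), *SST* (0.0584 TPM) and *SCG5* (0) formed the bottom. *SCG3* exceeded *SCG2*, and *SCG2* exceeded *CHGB*, within each of the 6 libraries, although their ranges overlapped across libraries. All values of *CHGB* were above all values of *CHGA*, with a ratio of mean TPM of 12.8. *GAL* exceeded *VGF* in each library, with ranges that overlapped across libraries. *CHGA* and *GAL* did not differ beyond their spread, and neither did neighbours in the order from *VGF* downwards.

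**Figure D1:**
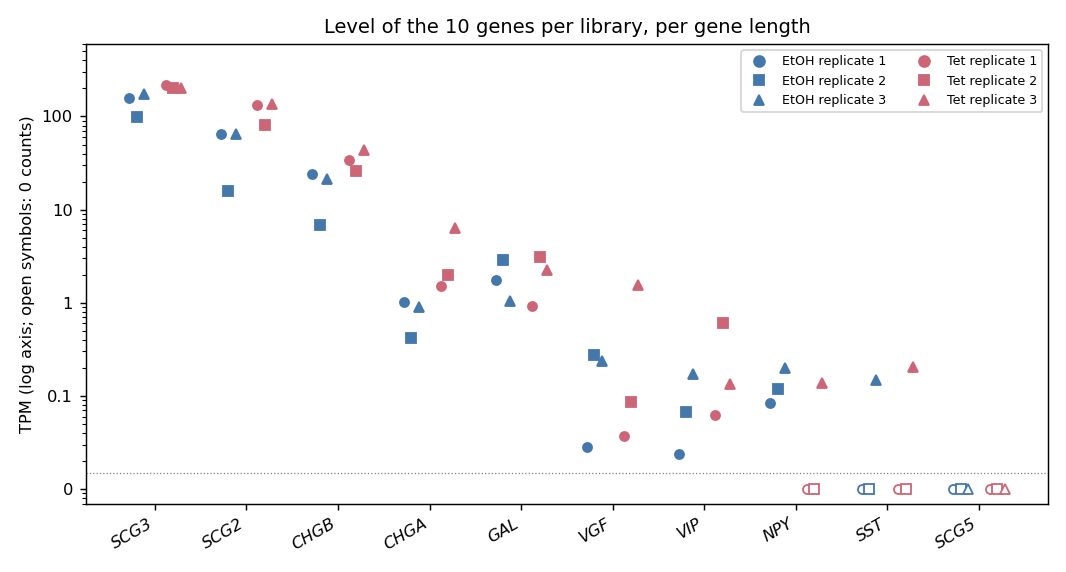
Level of each of the 10 genes in TPM on a log axis, with 1 symbol per library (EtOH on the left, Tet on the right of each gene) and open symbols for libraries with 0 counts. *SCG3*, *SCG2* and *CHGB* lie between 6.88 and 216 TPM, while *SCG5* is at 0 in all 6 libraries.

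The sum over the 10 genes was 250.2, 125 and 262 TPM in EtOH replicates 1 to 3 and 385, 314 and 394 TPM in Tet replicates 1 to 3. Every Tet library was thus above every EtOH library, and EtOH replicate 2 was the lowest of all. *SCG3* made up 63.3%, 78.7% and 66.1% of this sum in the EtOH libraries and 56.2%, 64.4% and 51.3% in the Tet libraries, so that its share overlapped between the groups. The 7 genes other than *SCG3*, *SCG2* and *CHGB* added between 0.661% and 3.01% of the sum. In bulk RNA, fewer cells making a transcript and less of it per cell cannot be told apart.

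Of the 10 genes, 5 passed the filter on low counts and were tested: *SCG3*, *SCG2*, *CHGB*, *CHGA* and *GAL*. Of these, 0 had an edgeR adjusted p under 0.05, where 0.236% of all 22443 genes did. The 4 granins tested had an unadjusted p under 0.05 and were higher in Tet, which held for 5.83% of all genes tested, and in each of them all 3 Tet libraries lay above all 3 EtOH libraries (9.21% of all genes tested). DESeq2 called 1 of the 10 genes, *CHGA*, as given below, and limma-voom called 0. The median log2 fold change of the 4 granins was 1.18, against -0.01 over all genes tested and 1.18 over the sympathoadrenal markers tested. These counts cover the granins that passed the filter, and the other 2 granins, *VGF* and *SCG5*, were too low to test.

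**Figure D2:**
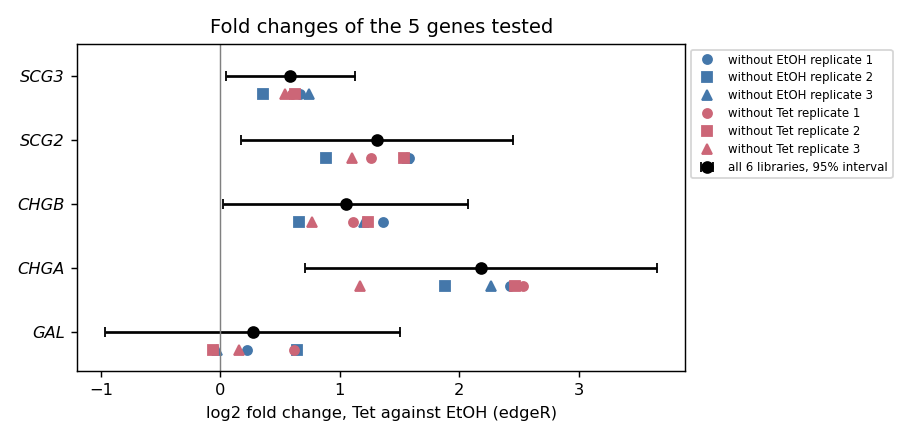
Log2 fold change of the 5 genes tested, Tet against EtOH, with its 95% interval from edgeR (black) and, under each, the estimates with 1 library left out (coloured symbols). The 4 granins lie between 0.59 and 2.18, the interval of *GAL* runs from -0.96 to 1.51, and *CHGA* drops to 1.17 without Tet replicate 3.

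*SCG3* encodes secretogranin III, which binds cholesterol-rich vesicle membrane and carries chromogranin A to it. The gene (ENSG00000104112.9) spans 51681492 to 51721026 of chromosome 15, plus strand, in the GRCh38 coordinates used throughout. EtOH replicates 1 to 3 had 186, 105 and 202 CPM of *SCG3* and Tet replicates 1 to 3 had 243, 236 and 263 CPM. The groups did not overlap, and the Tet libraries were close to each other while EtOH replicate 2 was well below the other EtOH libraries. The means were 164 ± 51.8 and 247 ± 14.1 CPM (SD, n = 3 each), with a log2 fold change of 0.59 (SE 0.24, 95% interval 0.05 to 1.12, edgeR adjusted p = 0.42). Without EtOH replicate 2 the log2 fold change was 0.36 (edgeR adjusted p = 0.163).

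*SCG2* encodes secretogranin II, the precursor of the peptide secretoneurin. The gene (ENSG00000171951.5) spans 223596940 to 223602361 of chromosome 2, minus strand. In EtOH replicates 1 to 3 it was at 62.0, 13.9 and 61.6 CPM, and in Tet replicates 1 to 3 at 121, 75.9 and 145 CPM. EtOH replicate 2 was at 0.224 times the mean of the other EtOH libraries, and the lowest Tet library, replicate 2, was still above the highest EtOH library. The means were 45.8 ± 27.7 and 113.9 ± 35.2 CPM (SD, n = 3 each), a 2.49-fold difference (log2 fold change 1.31, SE 0.50, 95% interval 0.17 to 2.45, edgeR adjusted p = 0.391). Without EtOH replicate 2 the log2 fold change was 0.89 and the SE 0.24 (edgeR adjusted p = 0.0795).

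*CHGB* encodes chromogranin B, one of the main soluble proteins of chromaffin granules. The gene (ENSG00000089199.10) spans 5911510 to 5925353 of chromosome 20, plus strand. In EtOH replicates 1 to 3 it was at 39.7, 10.4 and 34.7 CPM, and in Tet replicates 1 to 3 at 53.4, 42.6 and 79.7 CPM. The order of the libraries by CPM was the same as that of *SCG2*, with EtOH replicate 2 lowest and Tet replicate 3 highest. The means were 28.2 ± 15.7 and 58.6 ± 19.1 CPM (SD, n = 3 each), a 2.07-fold difference (log2 fold change 1.05, SE 0.45, 95% interval 0.03 to 2.08, edgeR adjusted p = 0.452). Leaving out EtOH replicate 2 gave a log2 fold change of 0.66 (edgeR adjusted p = 0.164).

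*CHGA*, although the best-known granin, was the lowest of the 4 granins tested. The gene (ENSG00000100604.13) spans 92923150 to 92935285 of chromosome 14, plus strand. There were 41, 12 and 30 counts in EtOH replicates 1 to 3 (1.14, 0.433 and 0.992 CPM) and 46, 79 and 313 counts in Tet replicates 1 to 3 (1.63, 2.23 and 7.88 CPM). Tet replicate 3 alone was at 4.08 times the mean of the other Tet libraries. The means were 0.856 ± 0.374 and 3.91 ± 3.45 CPM (SD, n = 3 each), with a log2 fold change of 2.18 (SE 0.65, 95% interval 0.71 to 3.66, edgeR adjusted p = 0.255). Without Tet replicate 3 the log2 fold change was 1.17 (edgeR adjusted p = 0.527), and without EtOH replicate 2 it was 1.88 (edgeR adjusted p = 0.144). *CHGA* passed the threshold under DESeq2 (adjusted p = 0.014), where 1.29% of 22418 genes with an adjusted p were called and higher in Tet, and with no filter on low counts (edgeR adjusted p = 0.0339), where 0.457% of 40467 genes were.

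The 4 granins shared the order of their extreme libraries. Each had its lowest CPM in EtOH replicate 2 and its highest in Tet replicate 3, which held for 9.33% of all genes tested and was noticed after the values were seen. In TPM the highest library for *SCG3* was Tet replicate 1. Their spread between replicates was large for their level. The pooled SD within groups, on the log2 CPM scale, was 0.94 for *SCG2*, larger than in 99.5% of 3159 genes with a mean level within 1 log2 unit. It was 0.82 for *CHGB* (98.6% of 3411 genes), 0.97 for *CHGA* (94.3% of 6180 genes) and 0.37 for *SCG3* (80.6% of 1844 genes). The granins did not keep fixed proportions either, although some ratios moved less than others. *SCG2* was at 2.31 to 3.06 times the TPM of *CHGB* in EtOH libraries and at 3.07 to 3.896 times in Tet libraries. These ranges lay next to each other without overlap, and the difference was not tested. *SCG3* was at 2.44, 6.18 and 2.66 times the TPM of *SCG2* in EtOH replicates 1 to 3 and at 1.64, 2.52 and 1.47 times in Tet replicates 1 to 3, overlapping between the groups. *CHGB* was at 23.6, 16.3 and 23.8 times the TPM of *CHGA* in the EtOH libraries and at 22.3, 13.0 and 6.88 times in the Tet libraries, lowest in Tet replicate 3.

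**Figure D3:**
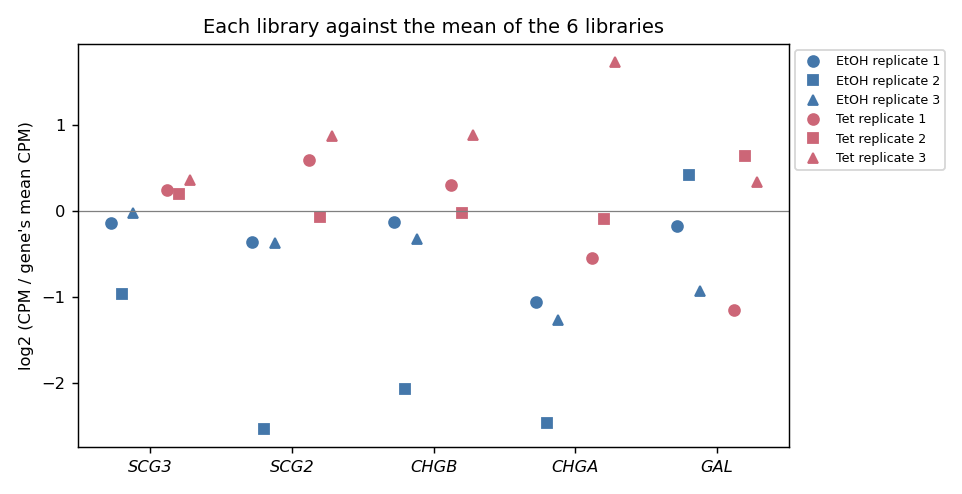
Level of the 5 genes tested in each library, as the log2 ratio of its CPM to the gene's mean CPM over the 6 libraries, with EtOH on the left and Tet on the right of each gene. The 4 granins are lowest in EtOH replicate 2 (blue squares) and highest in Tet replicate 3 (red triangles), and *GAL* mixes the groups.

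Other values of these libraries are given beside this order. The mitochondrial genome held 10.01%, 4.12% and 8.49% of the counts in EtOH replicates 1 to 3 and 6.82%, 5.86% and 9.14% in Tet replicates 1 to 3, lowest in EtOH replicate 2, while Tet replicate 3 lay within the range of the EtOH libraries. *REST*, which encodes the repressor that keeps neuronal genes such as granins silent in other cell types, was at 87.4, 162 and 91.5 CPM in EtOH replicates 1 to 3 and at 106, 135 and 109 CPM in Tet replicates 1 to 3. It was thus highest in EtOH replicate 2, while every Tet library lay above EtOH replicates 1 and 3, as in the granins tested. No difference of *REST* between the labels was detected (log2 fold change 0.04, 95% interval -0.53 to 0.61, edgeR adjusted p = 0.981). The part of these values in the granin order was not tested.

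*VGF* and *SCG5*, the other granins, were near or at 0. *VGF* (ENSG00000128564.7, minus strand of chromosome 7, 101162509 to 101165569) encodes a nerve growth factor-inducible precursor of several peptides. It had 1, 7 and 7 counts in EtOH replicates 1 to 3 and 1, 3 and 68 counts in Tet replicates 1 to 3. Tet replicate 3 held most of its 87 counts, as it held most of those of *CHGA*, and the other 5 libraries overlapped between the groups. *SCG5* (ENSG00000166922.8, plus strand of chromosome 15, 32641676 to 32697098) encodes 7B2, the chaperone that the convertase encoded by *PCSK2* needs to mature. It had 0 counts in all 6 libraries, which allows a level of up to 0.0152 CPM over 197653285 counts (3 counts, counting error only). This held for 15.6% of 19928 protein-coding genes. Of the genes around it, named after their values were seen, *ARHGAP11A* on one side had 559.5 to 1228.5 counts per library and *FMN1* on the other 814 to 2966, while *GREM1* and the antisense gene *SCG5-AS1* had 0 in all libraries.

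Promoter windows were read for a short element shared by *CHGA*, *VGF* and *SST*, which lie far apart in level. The cAMP response element (CRE), first described in somatostatin, is bound by CREB and related factors. Windows of 250 bases before to 50 after the gene start were matched in RefSeq (GRCh38.p14) for 7 of the 10 genes, *CHGA*, *SCG3*, *SCG5*, *VGF*, *NPY*, *VIP* and *SST*. The CRE letters TGACGTCA, which read the same on both strands, were found in 3 of the 7, against 1.84% of 34943 promoter windows of the same length. Because the element searched for was one that these 3 genes share, this comparison is no test of enrichment. Variants of these letters were not searched for. The first base of the CRE letters lay 54 bases before the start of *CHGA*, 79 before *VGF* and 47 before *SST*. The E-box letters CACGTG, also the same on both strands and the site preferred by MYC family proteins, were found in *VGF*, 54 bases before its start, and not in the other 6 windows, against 7.23% of all windows. Shown are the 3 genes with the CRE letters and *SCG3*, the most abundant of the 10 genes, whose window has neither set of letters. For *SCG3* the RefSeq start lies some bases inside the gene as annotated in the deposited tables. Given are the 100 bases before the RefSeq start, 5′ to 3′ on the strand of the gene, with CRE and E-box letters in capitals. They are at chr14:92923050-92923149 (plus strand, *CHGA*), chr7:101165570-101165669 (minus strand, *VGF*), chr3:187670395-187670494 (minus strand, *SST*) and chr15:51681403-51681502 (plus strand, *SCG3*).
CHGA: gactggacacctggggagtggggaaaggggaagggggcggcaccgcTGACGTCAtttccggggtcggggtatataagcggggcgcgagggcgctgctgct
VGF: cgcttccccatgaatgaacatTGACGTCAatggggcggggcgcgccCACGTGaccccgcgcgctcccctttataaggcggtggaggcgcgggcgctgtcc
SST: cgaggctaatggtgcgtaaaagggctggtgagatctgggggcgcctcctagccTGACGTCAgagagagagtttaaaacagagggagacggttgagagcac
SCG3: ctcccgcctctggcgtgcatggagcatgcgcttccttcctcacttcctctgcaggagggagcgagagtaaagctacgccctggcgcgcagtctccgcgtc

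Of the 7 genes with a window, the 3 with the CRE letters had mean levels of 2.04 TPM (*CHGA*), 0.370 TPM (*VGF*) and 0.0584 TPM (*SST*). Those without the letters had 175 TPM (*SCG3*), 0.178 TPM (*VIP*), 0.0904 TPM (*NPY*) and 0 (*SCG5*). The letters TGACGTCA were thus absent from the window of the gene with the highest level and from windows of genes near 0. No window was matched for *SCG2* and *CHGB*, the next highest of the 10 genes, nor for *GAL*. The relation of the letters to level was not tested. *CREB1*, which encodes the factor named for this element, was at 179 to 274 CPM with no difference between the labels detected (log2 fold change 0.15, 95% interval -0.27 to 0.56, edgeR adjusted p = 0.849).

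Among the 4 peptide precursors, *GAL* was the one tested. The gene (ENSG00000069482.7) spans 68683779 to 68691175 of chromosome 11, plus strand, and encodes galanin, a peptide that acts on neurons and endocrine cells and is often made by neuroblastoma. It had 30, 35 and 15 counts in EtOH replicates 1 to 3 (0.837, 1.26 and 0.496 CPM) and 12, 52 and 47.5 counts in Tet replicates 1 to 3 (0.425, 1.47 and 1.20 CPM). The groups overlapped fully, and EtOH replicate 2, the lowest library for the granins, was the highest EtOH library for *GAL*. The log2 fold change was 0.27 (SE 0.54, 95% interval -0.96 to 1.51, edgeR adjusted p = 0.922). With 1 library left out it took both signs, from -0.059 to 0.64.

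*VIP*, *NPY* and *SST* were at the limit of detection. *VIP* (ENSG00000146469.13, plus strand of chromosome 6, 152750797 to 152759765), for the vasodilator VIP, had 0.5, 1 and 3 counts in the EtOH libraries and 1, 12.5 and 3.5 in the Tet libraries, and *LINC02840* on the other strand covers 20.6% of its exon bases. *NPY* (ENSG00000122585.8, plus strand of chromosome 7, 24284188 to 24291862), for the co-transmitter of sympathetic neurons, had 1, 1 and 2 counts in the EtOH libraries and 0, 0 and 2 in the Tet libraries. *SST* (ENSG00000157005.4, minus strand of chromosome 3, 187668912 to 187670394), for the release inhibitor somatostatin, had 0, 0 and 1 and 0, 0 and 2. A difference between the labels was not detectable at this depth for any of the 3.

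Receptors for these peptides were in part well expressed where the ligand was not. Of 15 receptor genes, 4 were tested, 5 had 0 counts in all libraries and 0 passed the threshold, with a median log2 fold change of -0.25 over those tested. *SSTR2*, the somatostatin receptor that is the target of somatostatin receptor imaging of neuroendocrine tumours, had a mean of 82.0 TPM, near that of *SCG2*. In EtOH replicates 1 to 3 it was at 147, 239.9 and 154 CPM, and in Tet replicates 1 to 3 at 212, 448 and 214 CPM. Tet replicate 2 was the highest, and the groups overlapped through EtOH replicate 2 (log2 fold change 0.69, SE 0.33, 95% interval -0.05 to 1.44, edgeR adjusted p = 0.504). Without Tet replicate 2 the log2 fold change was 0.24, and without EtOH replicate 2 it was 0.96. The other 4 somatostatin receptor genes were at or near 0.

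The neuropeptide Y receptor gene *NPY1R* had 8.36, 12.2 and 7.45 CPM in EtOH replicates 1 to 3 and 9.94, 8.38 and 5.44 CPM in Tet replicates 1 to 3, and no difference between the labels was detected (log2 fold change -0.24, 95% interval -0.91 to 0.43, edgeR adjusted p = 0.848). *NPY5R*, which starts head to head with it on chromosome 4, had 1.74 ± 0.265 and 1.12 ± 0.339 CPM (SD, n = 3 each; edgeR log2 fold change -0.63 with SE 0.35, adjusted p = 0.582). Both genes share exon bases on opposite strands (13.3% of *NPY1R* and 15.8% of *NPY5R*), and counting without strand cannot tell their reads apart there. *ADCYAP1R1*, for the receptor of the VIP-related peptide PACAP, had 6.03 ± 3.03 and 5.07 ± 0.816 CPM (log2 fold change -0.25, edgeR adjusted p = 0.89). The galanin receptor genes *GALR1* and *GALR3* had 0 counts, and *GALR2* had 10 in all libraries together. The VIP receptor genes *VIPR1* and *VIPR2* had totals of 46 and 38.5 counts.

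**Figure D4:**
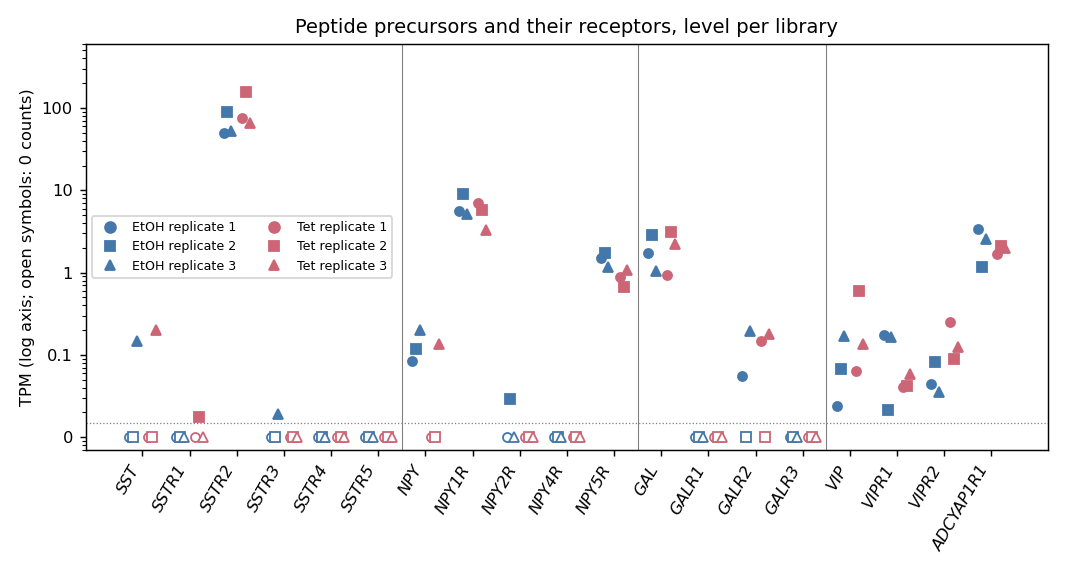
Level in TPM, on a log axis, of the 4 peptide precursor genes and the receptor genes of their peptides, with 1 symbol per library and open symbols for 0 counts. *SSTR2* lies between 50.4 and 155 TPM although *SST* has at most 2 counts in a library, and *NPY1R* lies between 3.33 and 9.06 TPM.

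Of 44 other neuropeptide precursor genes, 7 were tested, 16 had 0 counts in all libraries and 0 passed the threshold (median log2 fold change -0.35 over those tested, 0 of 7 with an unadjusted p under 0.05). One, *GNRH1*, reached a mean of 5 CPM. This gene, for gonadotropin-releasing hormone, was at 8.74 ± 0.729 CPM in EtOH and 7.37 ± 1.27 CPM in Tet libraries (SD, n = 3 each; log2 fold change -0.25, edgeR adjusted p = 0.772).

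The enzymes that cut and modify the precursors were measured next. Of 16 processing genes, 12 were tested and 0 passed the threshold, with 2 higher (5.83% of all genes tested) and 2 lower (4.94%) at an unadjusted p under 0.05 and a median log2 fold change of -0.14. *CPE*, the carboxypeptidase that trims basic residues from cut precursors, was at 60.1, 67.3 and 67.6 CPM in EtOH replicates 1 to 3 and at 99.5, 122 and 110.3 CPM in Tet replicates 1 to 3. The groups did not overlap and replicates lay close together, with a log2 fold change of 0.76 (SE 0.15, 95% interval 0.43 to 1.10, edgeR adjusted p = 0.0903). EtOH replicate 2 was not the lowest library for *CPE*, and without it the gene passed the threshold (log2 fold change 0.80, edgeR adjusted p = 0.0247). That fit called 361 genes higher and 331 lower of 23935, against 33 and 20 of 22443 with all 6 libraries.

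The prohormone convertase genes were low. *PCSK1* had 63 counts and *PCSK2* 341 counts in all libraries together, with log2 fold changes of 0.70 and 0.13 (edgeR adjusted p = 0.745 and 0.954). *PCSK1N*, for the granin-like convertase inhibitor proSAAS, had 1, 0 and 2 counts in the EtOH libraries and 4, 1 and 12 in the Tet libraries. *PAM*, for the enzyme that amidates peptides such as neuropeptide Y, was at 72.5 ± 7.25 and 58.0 ± 9.74 CPM (SD, n = 3 each; edgeR log2 fold change -0.32 with SE 0.17, adjusted p = 0.567). *CPE* and *PAM* thus stood well above the convertase genes in these cells, also per length, at means of 76.1 and 20.1 TPM against 0.156 TPM for *PCSK1* and 0.676 TPM for *PCSK2*.

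Of 27 genes of the dense-core vesicle machinery, 18 were tested, 1 passed the threshold (higher in Tet; 0.236% of all genes tested passed it in either direction) and 0 were lower. At an unadjusted p under 0.05 there were 4 higher (5.83% of all genes tested) and 0 lower (4.94%), and the median log2 fold change was 0.26. The gene that passed was *CADPS* (ENSG00000163618.18, minus strand of chromosome 3, 62398346 to 62875416), which encodes CAPS1, a factor that primes dense-core vesicles for calcium-triggered release. It was at 23.2, 15.5 and 23.8 CPM in EtOH replicates 1 to 3 and at 69.5, 96.6 and 68.7 CPM in Tet replicates 1 to 3. All Tet libraries lay far above all EtOH libraries, a 3.76-fold rise (log2 fold change 1.91, SE 0.23, 95% interval 1.39 to 2.43, edgeR adjusted p = 0.0285). Leaving out 1 library kept the log2 fold change between 1.73 and 2.00, but the adjusted p was above 0.05 without any 1 of the libraries except EtOH replicate 2 (0.106 to 0.203, and 0.00518 without EtOH replicate 2). Over all genes, the fits without any library other than EtOH replicate 2 called at most 1 gene higher and 1 lower. The fit without EtOH replicate 2 called 361 higher and 331 lower of 23935 genes.

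The vesicle membrane gene *PTPRN* (the autoantigen IA-2) had the same extreme libraries as the granins, at 10.1, 4.82 and 11.2 CPM in EtOH replicates 1 to 3 and 18.1, 11.04 and 24.7 CPM in Tet replicates 1 to 3. Its groups overlapped (edgeR log2 fold change 1.04 with SE 0.38, adjusted p = 0.365). *ICA1* and *SYTL4*, named after their values were seen, were the others with an unadjusted p under 0.05. *ICA1* was at 35.0 ± 12.8 and 103.7 ± 8.41 CPM (SD, n = 3 each; log2 fold change 1.57, edgeR adjusted p = 0.0736), and *SYTL4*, for the vesicle docking protein granuphilin, at 53.6 ± 20.6 and 127 ± 23.9 CPM (log2 fold change 1.24, edgeR adjusted p = 0.167). *SRPX2* on the other strand covers 17.5% of the exon bases of *SYTL4*.

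**Figure D5:**
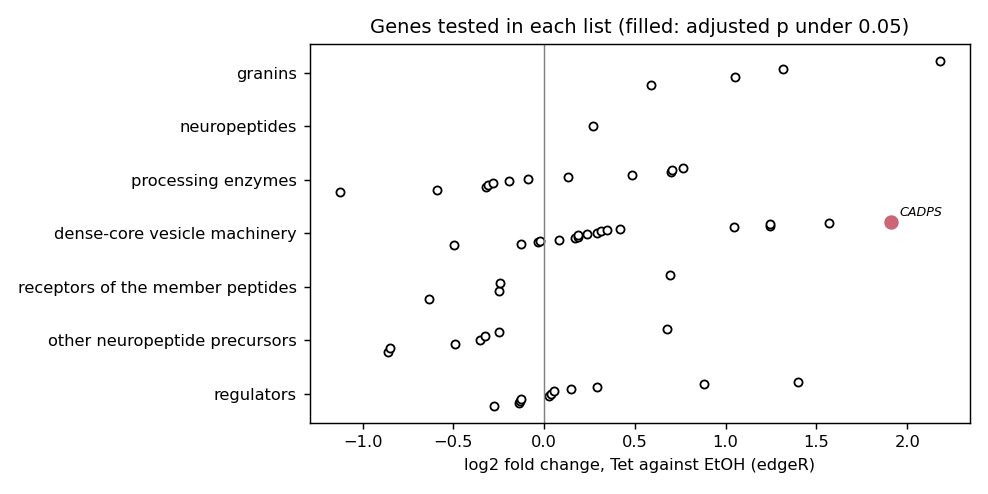
Log2 fold change, Tet against EtOH, of each gene tested in the 7 lists, with 1 circle per gene. The filled circle is *CADPS* at 1.91, the gene past the adjusted threshold, and the 4 granins lie to the right of 0.

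Genes for the monoamine load of these vesicles were read as well. *SLC18A2*, for the monoamine transporter VMAT2, was at 18.0 ± 5.70 and 12.7 ± 3.24 CPM (SD, n = 3 each; log2 fold change -0.50, edgeR adjusted p = 0.584), with 56.4% of its exon bases inside other genes. *SLC18A1*, for VMAT1, had 3, 2 and 3 counts in the EtOH libraries and 29, 8 and 19 in the Tet libraries and was not tested. *CYB561*, for the vesicle cytochrome that supplies electrons to DBH and PAM, had 0.34 ± 0.092 and 0.811 ± 0.457 CPM (edgeR log2 fold change 1.24 with SE 0.58, adjusted p = 0.504), and *PTPRN2* had 39 counts in all libraries together.

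Of 12 regulator genes, 11 were tested and 0 passed the threshold, with a median log2 fold change of 0.04 and 1 gene higher at an unadjusted p under 0.05 (5.83% of all genes tested). This gene was *PHOX2A*, for a sympathetic lineage factor, at 5.37, 4.58 and 5.14 CPM in EtOH replicates 1 to 3 and 7.27, 9.14 and 23.4 CPM in Tet replicates 1 to 3 (edgeR log2 fold change 1.40 with SE 0.42, adjusted p = 0.262). Tet replicate 3 was the highest library for *PHOX2A*, as it was for the 4 granins tested and *VGF*, and without it the log2 fold change was 0.71.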

How the data were processed

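Each library was given as 1 table of estimated counts per gene, deposited by the authors with no scaling for depth or length. Per the file headers, trimmed reads were aligned with STAR, and unique alignments were counted over exons with featureCounts 1.6.4 without strand, a read pair over several genes being divided among them. The submitters' processing notes name STAR 2.7.1a, featureCounts 1.5.1 and GRCh38, and the study's methods give other counting options, so the headers were followed. Reads of overlapping or antisense genes are therefore mixed, and the share of exon bases inside other genes is given where it matters. The 92 spike-in sequences had a largest count of 0 and were left out. Symbols were found for 60437 identifiers (99.6%).

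Values were rounded, because the design had been written for whole counts. After filterByExpr and TMM scaling, Tet was compared with EtOH in R 4.3.3 by edgeR 4.0.16 (quasi-likelihood test), with Benjamini-Hochberg adjustment over all 22443 genes tested and a threshold of 0.05. The SE is the log2 fold change divided by the square root of F. TPM came from counts and the exon lengths in the tables. Alternatives were other scalings, filters, DESeq2 1.42.0, limma-voom (limma 3.58.1), the replicate number as a term, and each library left out. The edgeR step was tested on simulated data, in which spread followed gene level alone and no library lay apart. That test therefore does not cover a library such as EtOH replicate 2 or the wide spread of the granins.

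The 10 genes and all lists were chosen with earlier results of these data known. Named were the 10 genes, *MYCN*, a fixed set from the lists, every receptor that was tested, other precursors averaging 5 CPM or more and any list gene past the threshold. Genes outside this rule were chosen after their values were seen: *TH*, *DBH*, *PHOX2A*, *CREB1*, *GATA2*, *GATA3*, *ISL1*, *PRRX1*, *SNAI2*, *ICA1*, *SYTL4*, the receptor genes too low to test, markers at 0 and the neighbours of *SCG5*. A planned list gene is not reported here and was left out of the list counts and sums.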

Additional observations from a re-analysis of the deposited data

How the results depend on the processing

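With the replicate number of the titles as a replicate block, 2 of the 10 genes passed the threshold, *CHGB* (log2 fold change 1.21, edgeR adjusted p = 0.0311) and *SCG2* (1.53, 0.0102), among 421 genes called and higher in Tet, along with 1 processing gene (*CPE*), 4 vesicle genes (*CADPS*, *ICA1*, *PTPRN* and *SYTL4*) and 1 receptor gene (*SSTR2*). Deviations of same-numbered libraries correlated at 0.0603, 0.510 and 0.219, and EtOH replicate 1 correlated best with Tet replicate 3 (0.379), so a shared number was not read as pairing. With no filter and under DESeq2, 1 of the 10 genes passed, *CHGA* (log2 fold change 2.18 and 2.16), with 1 processing gene (*CPE*), 3 vesicle genes and 1 regulator (*PHOX2A*) in each. The cause was not tested. RLE and upper quartile scaling, a minimum of 10 counts, limma-voom and leaving out mitochondrial genes changed none of these calls. With 1 library left out, 0 of the 10 genes passed in any fit, vesicle genes past the threshold ranged from 0 to 3 and processing genes from 0 to 1, the upper counts both without EtOH replicate 2. Over all genes, that fit called 361 higher and 331 lower of 23935. The fits without any other library called at most 1 gene higher and 1 lower. Across these fits, log2 fold changes ranged from 1.17 to 2.53 for *CHGA*, 0.66 to 1.36 for *CHGB*, 0.89 to 1.58 for *SCG2* and 0.36 to 0.74 for *SCG3*, EtOH replicate 2 included. *GAL* ranged from -0.059 (without Tet replicate 2; -0.029 without EtOH replicate 3) to 0.64, and *MYCN* from -0.22 to 0.21 (without EtOH replicate 2; 0.07 without Tet replicate 3). The order of the 10 genes by level was the same in TPM, in CPM and in TPM rescaled by TMM factors. Depth limits *VIP*, *NPY* and *SST*, and no absolute scaling was possible.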
